A study of Homo sapiens with 4 samples.

Results

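Neurons labelled glutamatergic in human enteric ganglioids were described here from single-nucleus RNA sequencing. A member was any nucleus that the deposited annotation placed among the enteric neurons and to which it gave the glutamatergic identity. The rule selected 2405 of 6321 neurons with an identity, against 3916 neurons labelled other. A further 236 enteric neurons had no identity, and the annotation covered 14812 of 25306 deposited nuclei in all.

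Ganglioids are free-floating neuronal clusters grown from the human embryonic stem cell line H9 through enteric neural crest. The 4 samples were 2 control and 2 PP121 samples, each a pool of ganglioids. Whether same-numbered control and PP121 samples shared a differentiation is not given in the sources used here. PP121 is a multi-target receptor tyrosine kinase inhibitor that was added at 2 µM from day 15 to day 20. All samples came from 1 cell line, had no agent other than PP121 and the shared culture medium, and were annotated as day 42 for replicate 1 and day 38 for replicate 2 of both groups. Values are given below in the order control replicate 1, control replicate 2, PP121 replicate 1 and PP121 replicate 2.

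Glutamatergic neurons load glutamate into synaptic vesicles with a vesicular glutamate transporter, encoded by SLC17A6, SLC17A7 or SLC17A8. Glutamate then acts on ionotropic receptors of the AMPA, NMDA and kainate types, which are ion channels, and on metabotropic receptors, which signal through G proteins. In the gut wall, SLC17A6 is known from sensory neurons with cell bodies in the enteric ganglia, which often carry a second transmitter such as acetylcholine or substance P.

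The labelled nuclei numbered 571, 546, 683 and 605. They made up 25.0%, 44.2%, 36.2% and 66.1% of the neurons with an identity, with exact 95% binomial intervals from 23.2 to 26.8%, 41.5 to 47.1%, 34.0 to 38.4% and 63.0 to 69.2%. The share was lower in replicate 1 than in replicate 2 of each group, and the control and PP121 samples overlapped. The control mean was 34.6% ± 13.6 (SD, n = 2) and the PP121 mean 51.2% ± 21.2 (SD, n = 2). The difference of 16.5 percentage points was 11.2 points at day 42 and 21.9 points at day 38, with an exact two-sided permutation p of 0.667, where 2 against 2 samples cannot go below 0.333. Without PP121 replicate 2 the difference was 1.58 points.

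Labelled nuclei held more unique molecular identifiers (UMIs, each standing for 1 captured RNA molecule) than the other neurons in all 4 samples. Their median was 7927, 9020.5, 7729 and 8633 UMIs, against 7172, 6954, 6465 and 5947.5 in the other neurons. Shares of nuclei with a UMI were therefore taken after each nucleus had been thinned to 2000 UMIs, which left out between 1 and 8 nuclei per sample and label. Intervals and limits cover counting error only.

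The label was first checked against the transporters. SLC17A6 lies on chromosome 11 at 22338097 to 22379503 of GRCh38, on the plus strand, and at 2000 UMIs it was seen in 4.39%, 6.06%, 9.56% and 8.77% of labelled nuclei. In the other neurons it was seen in 2.40%, 6.55%, 5.08% and 11.0%. The labelled nuclei were higher in replicate 1 of each group and lower in replicate 2 of each group, so that at this depth the share was higher in 2 of 4 samples. At 1000 UMIs it was 1.58%, 3.85%, 5.86% and 4.96% against 1.23%, 3.63%, 1.91% and 4.84%, higher in 4 of 4 samples. At 4000 UMIs, where shallower nuclei were left out, it was 7.19%, 10.8%, 14.8% and 15.8% against 3.28%, 8.63%, 7.14% and 16.6%, higher in 3 of 4.

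The mean difference in the SLC17A6 share at 2000 UMIs was 0.937 points with an SD of 2.93 over the 4 samples (exact sign-flip permutation p = 0.75, Benjamini-Hochberg adjusted 0.75 over 10 genes), and it was -0.244 points without PP121 replicate 1. At 1000 and 4000 UMIs it was 1.16 and 3.23 points. Without thinning, the shares were 10.7%, 18.9%, 22.3% and 24.3% in labelled nuclei against 5.78%, 13.7%, 9.88% and 19.4%, higher in all 4 samples together with the UMI totals. As a background level, 0 of 898 mesenchymal nuclei had a UMI at 2000 UMIs, which allows a share of up to 0.334%, and 0.840% of the first progenitor class had one. Their median depths before thinning were 7601 and 5268.5 UMIs. SLC17A6 transcripts were thus above background in both neuron groups, and the direction between the labels in a sample depended on the depth chosen for control replicate 2 and PP121 replicate 2.

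SLC17A8, a further vesicular transporter, was higher in labelled nuclei in 4 of 4 samples. At 2000 UMIs its share was 1.58%, 1.10%, 0.294% and 0.497% in labelled nuclei and 0.410%, 0%, 0.0833% and 0.324% in the others. The 0 in control replicate 2 was 0 of 687 nuclei, which allows a share of up to 0.437%. In PP121 replicates 1 and 2 the shares stood for 2 and 3 labelled nuclei against 1 and 1 other nuclei. Among non-neuronal classes 0.111% of mesenchymal, 0.420% of the first and 0.662% of the second progenitor class and 2.30% of the unknown class had a UMI, so the PP121 values were within the range of those classes. SLC17A7, the main transporter of the cerebral cortex, was nearly absent, with 11 labelled nuclei holding a UMI before thinning.

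GLUL, which encodes glutamine synthetase and makes glutamine from glutamate, had a larger difference in share between the labels, in percentage points, than any of the 3 transporters. Its share at 2000 UMIs was 11.1%, 10.8%, 6.47% and 7.95% in labelled nuclei and 2.46%, 1.89%, 1.50% and 0.971% in the other neurons. The groups did not overlap, and the mean difference was 7.37 points (SD 1.82, n = 4). GLUL was also seen in 7.02% of mesenchymal, 7.69% of epithelial, 7.84% of the first and 4.95% of the second progenitor class, so it was not particular to labelled neurons, and the other neurons were the low group. For each gene with the same direction in all 4 samples the exact permutation p was 0.125, the smallest that 4 pairs allow, and 0.179 after adjustment over the 10 genes.

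Counted without thinning, the share of neurons with a GLUL UMI that carried the label was 56.6%, 84.0%, 71.5% and 90.3%, and for SLC17A6 it was 38.1%, 52.3%, 56.1% and 71.0%, beside 25.0%, 44.2%, 36.2% and 66.1% of all neurons with an identity. Summed over samples, 762 of 1047 neurons with GLUL, 463 of 835 with SLC17A6 and 74 of 100 with SLC17A8 were labelled. Among neurons with both SLC17A6 and GLUL, 139 of 141 were labelled, whereas with SLC17A6 and no GLUL it was 30.0%, 42.3%, 48.7% and 62.7% in the 4 samples. Of the labelled nuclei, 53.1% had no UMI of SLC17A6, SLC17A7, SLC17A8 or GLUL. The rule behind the identity is not given in the sources used here, so these counts describe the label and do not test it, and the nuclei are called labelled neurons below.

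**Figure D1:**
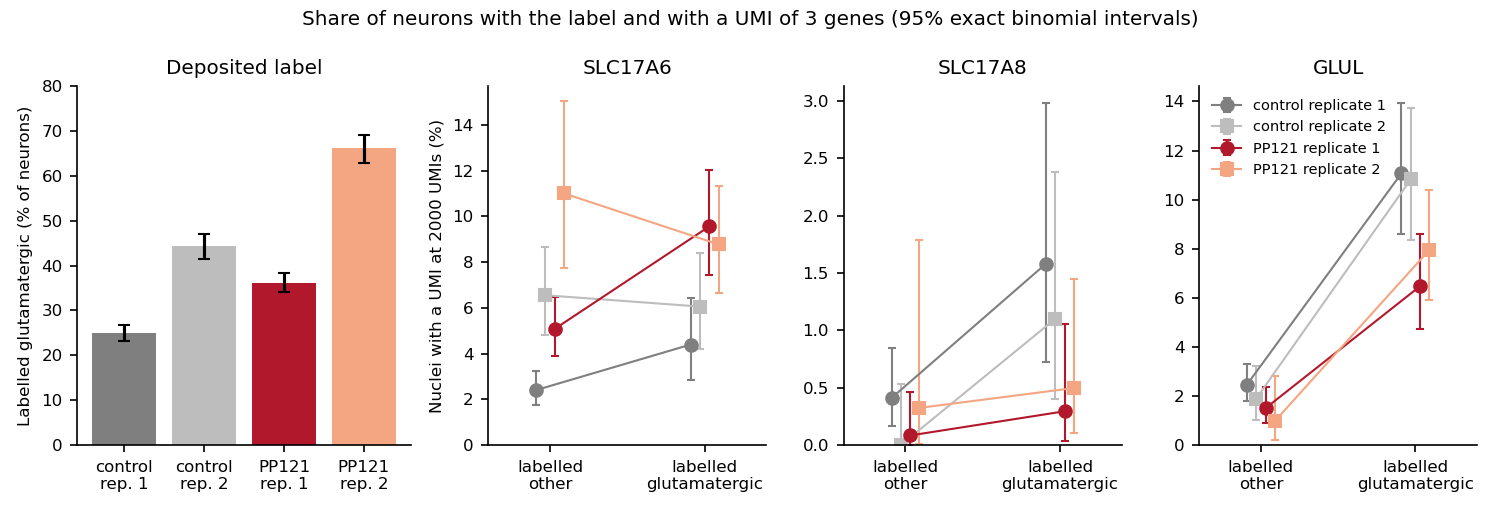
Share of enteric neurons labelled glutamatergic in each sample (bars, % of neurons with an identity) and share of nuclei with a UMI of SLC17A6, SLC17A8 or GLUL at 2000 UMIs per nucleus in neurons labelled other and labelled glutamatergic (points joined within a sample). Whiskers are exact 95% binomial intervals. At this depth the SLC17A6 lines run in both directions, while the GLUL share is higher in the labelled nuclei of all 4 samples.

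The labelled neurons were spread unevenly over the neuron subtypes of the annotation, which were drawn separately for control (EN 1 to EN 8) and PP121 samples (EN A to EN I). In control replicates 1 and 2 the highest labelled share was in EN 6, with 61.9% and 78.1%, followed by EN 2, with 45.5% and 69.6%. SLC17A6 was seen at 2000 UMIs in 0.794% and 1.94% of EN 6 nuclei and in 0 of 375 and 0 of 171 EN 2 nuclei. EN 6 and EN 2, the richest in the label in the control samples, thus held SLC17A6 in at most 1.94% of nuclei.

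EN 4 held SLC17A6 in 21.5% and 19.2% of nuclei and the label in 39.2% and 46.5%. EN 8 held SLC17A6 in 17.3% and 15.3% of nuclei but the label in only 8.08% and 31.4%. In PP121 replicates 1 and 2, EN B had the label in 54.6% and 86.6% of nuclei with SLC17A6 in 0.576% and 1.68%. EN I was high in both, with the label in 88.4% and 83.1% and SLC17A6 in 25.6% and 16.9% of nuclei, though it held only 43 and 77 nuclei. EN H had SLC17A6 in 20.5% and 21.0% of nuclei and the label in 42.4% and 56.7%.

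Other transmitter identities overlapped with the glutamatergic one. The GABAergic identity was held by 23.3%, 13.9%, 29.6% and 13.2% of labelled neurons against 52.5%, 36.8%, 54.5% and 25.2% of the others, a mean difference of -22.2 points (SD 7.34, n = 4). The cholinergic identity differed by -14.1 points (SD 6.15) and the nitrergic identity by -10.7 points (SD 1.12), each lower in the labelled neurons of all 4 samples. For these 3 identities the exact permutation p was 0.125, the smallest possible, and 0.208 after adjustment over 5 identities.

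The catecholaminergic identity was held by 28.5%, 36.6%, 38.8% and 41.0% of labelled neurons and by 14.7%, 38.4%, 32.9% and 49.4% of the others. It was higher among labelled neurons in replicate 1 and lower in replicate 2 of each group, a mean difference of 2.41 points that was -1.4 points without control replicate 1. The serotonergic identity differed by -5.25 points (SD 10.4) and was higher in labelled neurons in 1 of 4 samples. Between 25.2% and 33.2% of labelled neurons held no further transmitter identity, against 11.5 to 22.6% of the other neurons.

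Counts were then summed over the labelled and over the other neurons of each sample and compared across all genes, with the sample as a block (edgeR quasi-likelihood test, Benjamini-Hochberg adjustment over all genes tested). The identity was assigned on the same nuclei, so adjusted p-values state how steady a difference was over the 4 samples and are not independent evidence. At an adjusted p under 0.05, 2798 of 17807 genes differed (15.7%), 1353 higher (7.60%) and 1445 lower (8.11%) in labelled neurons, and 35.3% of the genes tested had the same direction in all 4 samples. Without control replicate 1 the count was 1216, and without control replicate 2 it was 1256.

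Since many neurons with SLC17A6 did not carry the label, the comparison was repeated with nuclei chosen by SLC17A6 itself. Neurons with an SLC17A6 UMI at 2000 UMIs, numbering 66, 78, 126 and 87, were set against all neurons without one at that depth, whatever their label. At full depth 835 neurons had an SLC17A6 UMI, so the group without one also held neurons with SLC17A6. Below, with and without SLC17A6 refer to the groups set at 2000 UMIs. With this definition 903 of 16592 genes differed (5.44%), 602 higher (3.63%) and 301 lower (1.81%). The log2 fold changes of both comparisons are given side by side below, and both draw on the same 4 samples. Counts of listed genes called below stand beside these shares for SLC17A6 and beside 7.60% higher and 8.11% lower for the label.

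Levels below are CPM, the summed UMIs of a gene scaled to an equal library total. GLUL stood at 51.1, 49.3, 36.8 and 40.7 CPM in labelled neurons and at 14.3, 8.71, 9.31 and 10.1 in the others. Every labelled sum was above every other sum, and GLUL had the largest rise among the genes named by rule, at 2.02 ± 0.12 (log2, SE, adjusted p = 7.8e-07). Between neurons with and without SLC17A6, the GLUL difference was -0.52 ± 0.22 (adjusted p = 0.22).

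Among the 10 genes named for a rise, ST18, INSM1, NHLH1 and NEUROD4 encode transcription factors. ST18 stood at 138, 217, 145 and 253 CPM against 39.9, 41.5, 62.8 and 114, a difference of 1.60 ± 0.15 (adjusted p = 2.0e-05). INSM1, which acts as progenitors leave the cell cycle, stood at 16.7, 22.6, 15.9 and 16.0 against 6.73, 5.01, 5.05 and 6.59 and differed by 1.58. NHLH1 and NEUROD4, both basic helix-loop-helix factors, differed by 1.46 and 1.66. NEUROD4 was at 22.0 and 17.1 CPM in PP121 replicate 2, the narrowest gap, and without control replicate 2 its adjusted p was above 0.05.

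Under the SLC17A6 definition all 4 factors had the opposite sign. INSM1 was at -2.16 (adjusted p = 0.0057), NHLH1 at -1.70 (0.028) and ST18 at -0.86 (0.0057), while NEUROD4 gave -0.70 and did not pass (0.48). PAUPAR, a long non-coding RNA beside PAX6, was at 1.47 with the label and at -2.11 with SLC17A6 (0.010). Of the 7 progenitor markers of the study 3 were higher with the label (SOX2, PAX3 and PAX7), and of the 6 tested with SLC17A6 4 were lower (NOTCH1, PAX3, PAX7 and NFIA).

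PAX3, a factor of the neural crest and dorsal neural tube, stood at 211, 240, 165 and 218 CPM in labelled and 79.9, 81.6, 139 and 177 in other neurons. The summed level of the 7 progenitor markers was 593 and 576 CPM in labelled control neurons against 410 and 316 in the others, and was 350 and 428 against 357 and 439 in the PP121 samples. The excess of the sum was thus present in both control samples and in neither PP121 sample. The single markers were mixed in both PP121 samples. PAX3 and PAX7 were higher in labelled neurons there, while MEF2C (104 and 67.9 against 132 and 88.7) and NFIA (13.7 and 50.4 against 30.7 and 88.3) were lower. The part of progenitor markers in the differences above was addressed only by leaving out the nuclei with at least as many progenitor as neuron marker UMIs. That kept 542 of 571, 519 of 546, 676 of 683 and 583 of 605 labelled nuclei. The 20 genes named by rule, SLC17A6 and SLC17A8 then had the same direction and side of the threshold. The part of progenitor transcripts in the nuclei kept was not tested.

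The other genes named for a rise were AP003464.1, RGS16, a regulator of G protein signalling, ABCA1, a cholesterol exporter, and EYA2, a transcriptional cofactor, at 1.71, 1.57, 1.37 and 1.31. Signal of AP003464.1 came from few nuclei, with 529 UMIs in 21 labelled nuclei of control replicate 1. Of the 20 genes named by rule, 11 overlap another annotated gene, and the use of strand in counting is not stated, so reads of overlapping genes may not be told apart.

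Of the 10 genes named for a fall, SPHKAP, an anchoring protein for protein kinase A, had the largest and stood at 7.64, 1.46, 3.73 and 2.82 CPM against 37.5, 9.46, 20.6 and 4.39, a difference of -2.23 ± 0.22 (adjusted p = 4.0e-05). CDH18, a cadherin, stood at 195, 193, 369 and 162 against 678, 767, 951 and 618, with no overlap, and differed by -1.79 ± 0.09 (adjusted p = 3.5e-07). PCP4, a regulator of calmodulin, differed by -1.98, RALYL, an RNA-binding protein, by -1.81, and PTPRT, a receptor tyrosine phosphatase, by -1.69.

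With the SLC17A6 definition, SPHKAP gave -1.01 (adjusted p = 0.21), PCP4 gave -1.04 (0.17), CDH18 gave -0.19 (0.30) and RALYL gave 0.21 (0.66). PTPRT was higher, by 0.89 (0.00021). TAFA1, at -1.97 with the label, was carried by the other neurons of PP121 replicate 2, where it stood at 83.9 CPM with 165 of 191 UMIs in 1 nucleus, and it was -0.82 without that sample. The remaining names were non-coding, AC004470.1, AL589693.1, GABRG3-AS1 and AL591686.2, between -1.90 and -1.73.

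**Figure D2:**
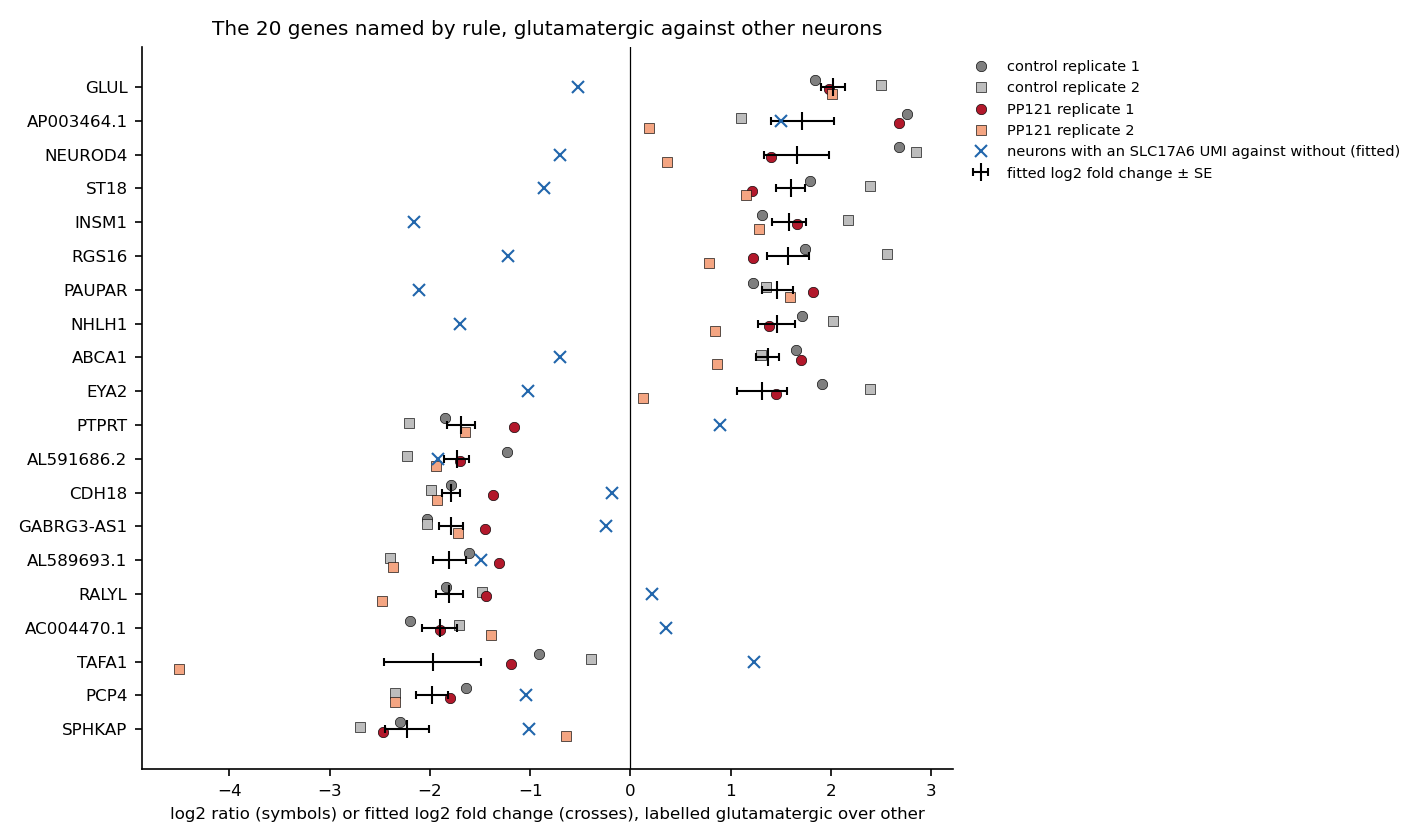
Log2 ratio of CPM in labelled over other neurons for each sample (symbols) and fitted log2 fold change ± SE (black crosses) for the 20 genes named by rule, with the fitted value for neurons with against without an SLC17A6 UMI (blue crosses). In all 10 genes named for a rise the symbols lie to the right of 0, as the naming rule required, while 9 of the 10 blue crosses lie to the left.

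Among the transporters, SLC17A6 itself stood at 27.1, 45.3, 63.4 and 62.9 CPM in labelled and 15.05, 33.2, 30.5 and 53.6 in other neurons. Within each sample the labelled sum was higher, across samples the groups overlapped, and the fitted difference was 0.64 ± 0.13 (log2, adjusted p = 0.0044). When only labelled neurons with no other transmitter identity were compared, it was -0.07. SLC17A8 stood at 7.44, 4.73, 2.54 and 2.29 against 1.23, 0.927, 0.561 and 0.439, with no overlap, a difference of 2.38 ± 0.31 (adjusted p = 0.00029). Its counts were low, from 29, 22, 11 and 12 labelled nuclei against 15, 5, 5 and 1 other nuclei before thinning. At these levels SLC17A8 passed the expression filter only through the labelled sums. It can also be one of the genes behind the label, so its difference, adjusted p and lack of overlap are descriptions and no support.

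Of 16 genes of glutamate metabolism and uptake, 13 were tested. GLUL, SLC1A3 and SLC38A2 were higher and SLC1A1 and SLC1A2 lower in labelled neurons. The median over the 13 was -0.02 on the log2 scale, beside -0.00499 over all genes tested. SLC1A3, the glutamate uptake carrier best known from glia, stood at 32.4, 27.1, 17.1 and 22.7 CPM against 20.6, 12.1, 10.4 and 19.8. SLC1A1 and SLC1A2, of the same carrier family, were -0.53 and -0.28 with the label and 0.90 and 1.00 with SLC17A6 (adjusted p = 0.0023 and 1.9e-05).

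The glutamate receptors differed in direction between the definitions. Of 18 ionotropic receptor genes, 9 were lower and 0 higher in labelled neurons, with a median of -0.45. Set by SLC17A6, 8 were higher and 1 lower, with a median of 0.53 beside 0.000151 over all genes. GRIN2B, an NMDA receptor subunit, stood at 54.1, 29.3, 50.5 and 19.4 CPM in labelled neurons against 122, 102, 143 and 75.5, a difference of -1.58 ± 0.11 (adjusted p = 1.8e-06) without overlap. With SLC17A6 it gave 0.43 (0.079).

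The 4 AMPA receptor genes GRIA1 to GRIA4 were at -0.94, -0.29, -0.68 and -0.65 with the label. With SLC17A6 they were at 0.62, 0.42, 0.42 and 0.86, of which GRIA3 did not pass (adjusted p = 0.10). GRIN2A was at -0.92 and 1.17, and the kainate receptor GRIK3 was lower by either definition, at -0.90 and -0.49. Among the metabotropic receptors 4 of 7 tested were lower with the label, GRM7 at -1.23 among them, and 0 higher, while only GRM3 passed with SLC17A6, at -0.54.

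**Figure D3:**
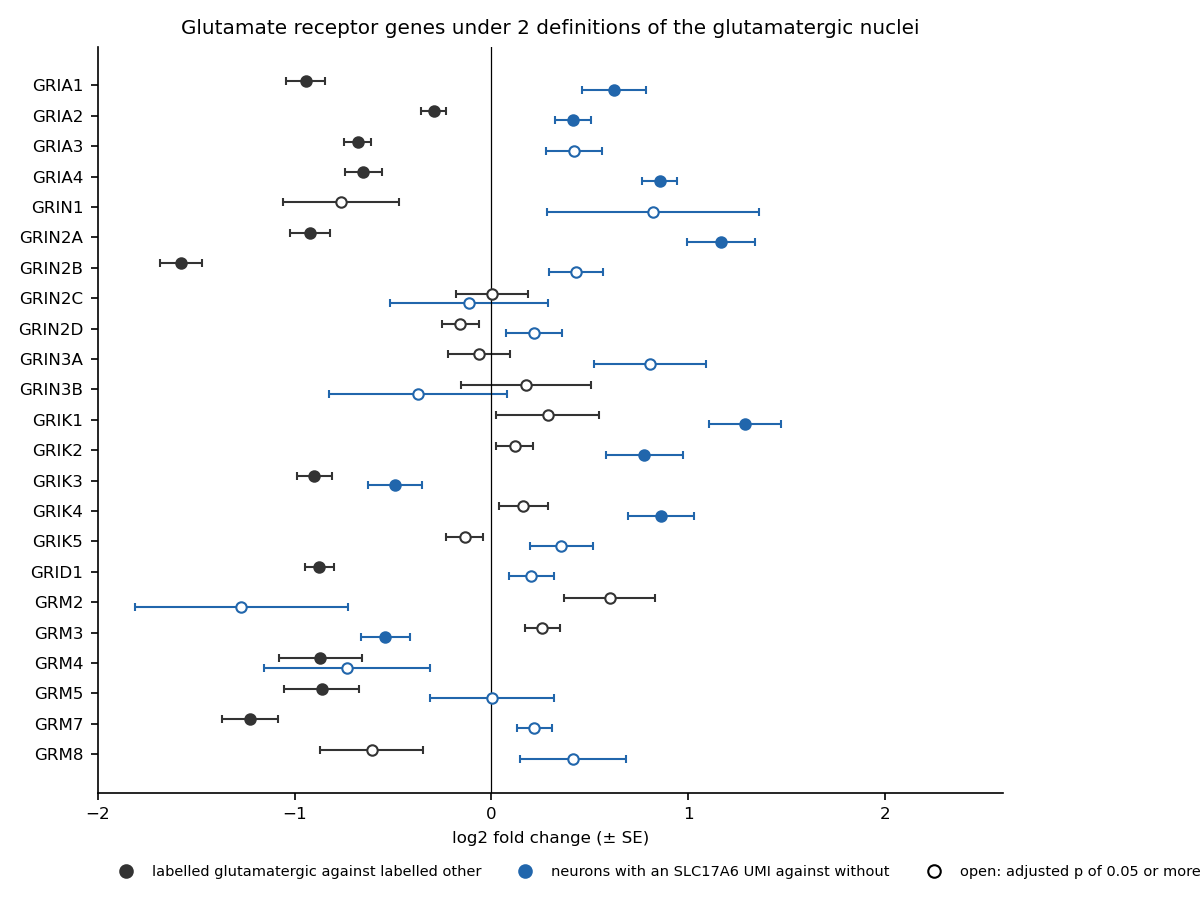
Fitted log2 fold change ± SE of the ionotropic (GRIA, GRIN, GRIK, GRID) and metabotropic (GRM) glutamate receptor genes shown for labelled against other neurons (black) and for neurons with against without an SLC17A6 UMI (blue), with filled points at an adjusted p under 0.05. All 8 filled black ionotropic points shown lie left of 0, and 7 of the 8 filled blue ionotropic points shown lie right of 0.

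Excitatory lineage factors were mostly higher under both definitions. NEUROG2 was an exception, at 1.12 with the label and -1.92 with SLC17A6 (edgeR, adjusted p = 0.23). Of 9 transcription factors known from excitatory lineages tested with the label, 6 were higher (TLX3, NEUROG2, LHX9, EBF1, EBF2 and EBF3) and 0 lower, with a median of 0.81. Of 9 tested with SLC17A6, 7 were higher, LHX2 among them, with a median of 1.52. The 2 sets differed, as LHX2 was tested only with SLC17A6 and NEUROD2 only with the label. EBF2, a helix-loop-helix factor of early neurons, stood at 36.2, 68.6, 70.7 and 90.1 CPM in labelled neurons and 11.6, 34.1, 22.3 and 55.3 in the others, a difference of 1.23 ± 0.14 (adjusted p = 0.00010). Between neurons with and without SLC17A6 it differed by 1.28 ± 0.20 (0.00029).

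In the same list TLX3, a homeobox factor that selects glutamatergic over GABAergic fate in the dorsal spinal cord, stood at 4.22, 9.28, 12.7 and 8.82 against 1.37, 2.97, 3.25 and 6.15. It differed by 1.49 with the label and by 2.25 with SLC17A6. LHX9, a LIM homeobox factor, differed by 1.96 and 2.71. LHX2 and LMX1B rose with SLC17A6, at 3.03 and 1.99, while LMX1B gave 0.51 with the label (adjusted p = 0.096). LHX2 failed the expression filter with the label, at 0.434, 0.927, 0.224 and 1.32 CPM in other neurons. It may have passed with SLC17A6 only through the sums where it was high, so its rise is a description and no support.

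Genes of inhibitory transmission had the opposite direction. All 6 genes of GABA and glycine transmission were lower in labelled neurons, with a median of -0.73, and 4 of 6 were lower in neurons with SLC17A6, with a median of -1.76. GAD2, a GABA-synthesising enzyme, stood at 77.0, 39.9, 74.1 and 28.7 CPM against 134, 79.4, 135 and 47.4, lower in each sample with a fitted difference of -0.88 (adjusted p = 1.2e-05), and it was -2.52 with SLC17A6. SLC6A5, the neuronal glycine transporter, was at -0.85 and -2.68. Among 5 tested inhibitory lineage factors the directions were mixed with the label, with PAX2 and PAX8 lower, LHX5 higher and a median of 0.18, and 4 were lower and 0 higher with SLC17A6 (PAX2, PAX8, LHX1 and LHX5), with a median of -2.11. PAX8 stood at 180, 69.0, 127 and 26.1 against 363, 173, 301 and 79.5 and was at -1.28 and -2.86, and PAX2 was at -0.63 and -2.62.

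Of 11 tested sensory neuron genes 2 were higher with the label (NEFM and NEFL, neurofilament subunits) and 2 lower (CALB2 at -0.73 and NTRK2 at -0.34). Their median was -0.22, and over all genes tested 7.60% were higher and 8.11% lower with the label. Of 9 sensory neuron genes tested with SLC17A6 3 were higher (NEFM, NEFL and NTRK3) and 0 lower, with a median of 0.21. Of 6 tested neuropeptides, TAC1, the precursor of substance P, and TAC3 were higher with the label, and of 4 tested with SLC17A6, TAC1 and ADCYAP1 were higher. NEFM stood at 46.6, 75.7, 86.0 and 133 CPM in labelled neurons and 20.8, 37.3, 33.1 and 54.9 in the others, a difference of 1.19 ± 0.09 (adjusted p = 3.2e-06), and differed by 0.79 with SLC17A6. TAC1 stood at 6.84, 17.1, 22.7 and 45.3 against 3.04, 10.2, 8.86 and 15.8 and differed by 1.19 and 2.61.

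CHAT, which makes acetylcholine, was lower by both, at -1.12 and -2.18. NOS1, the neuronal nitric oxide synthase, was -1.30 with the label and 1.72 with SLC17A6 (adjusted p = 0.013 for each). Its counts were low, between 20 and 22 UMIs per sample over all labelled neurons, and in the other neurons 1 nucleus held 25 of 80 UMIs in PP121 replicate 1 and 18 of 51 in PP121 replicate 2. The share of nuclei with a NOS1 UMI at 2000 UMIs differed by -0.248 points (exact permutation p = 0.375) and was higher in labelled neurons in 1 of 4 samples. Of the 23 tested genes of synaptic vesicle release, 10 were lower and 1 higher with the label, while 3 were higher and 1 lower with SLC17A6. SV2C, a vesicle protein, was lower by either definition, at -1.60 and -2.53.

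Beside the progenitor markers given above, markers of other cell types were counted. Of 11 tested mesenchymal, 1 epithelial and 5 glial markers, 0 passed in either direction with the label (edgeR), beside 15.7% of all genes tested. Their summed levels ran from 153 to 213 CPM for mesenchymal markers in labelled neurons and from 150 to 253 in the others. For glial markers they ran from 24.0 to 34.1 and from 24.6 to 34.2, with GFAP at 0 in labelled neurons of PP121 replicate 1, and for epithelial markers from 9.17 to 10.7 and from 6.15 to 10.4, with KRT19 at 0 in labelled neurons of control replicate 1.

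Within the labelled neurons, PP121 and control samples were compared next, which asks how these neurons differed after early exposure to the inhibitor. The replicate number marks a shared day, so the fit with it as a block is printed beside the fit without it. Without the block, 4 of 18191 genes passed (0.0220%), all higher in PP121 samples, where 2528 passed before adjustment. With the block, 2103 genes passed (11.6%), 1313 higher (7.22%) and 790 lower (4.34%), on 1 residual degree of freedom. DESeq2 gave 167 genes without the block, 137 higher and 30 lower, and 281 with it, 239 higher and 42 lower. Without control replicate 1 or without control replicate 2 the count without a block was 0, and without PP121 replicate 1 or 2 it was 1032 or 494.

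The 4 genes were PRDM6, GRIK1, TMEFF2 and RBFOX1. GRIK1, a kainate receptor subunit, stood at 29.4, 29.7, 130.2 and 226.6 CPM, with both PP121 samples above both control samples. Its log2 fold change was 2.67 (adjusted p = 0.036), and 2.63 with the block (2.1e-21). In neurons chosen by an SLC17A6 UMI it was 2.54 (0.094) and 2.55 with the block (1.3e-07).

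RBFOX1, a splicing regulator of neurons, stood at 471, 418, 1334 and 1279 CPM, a change of 1.63 (adjusted p = 0.025). TMEFF2, a transmembrane protein with follistatin domains, stood at 40.2, 37.1, 122 and 155, a change of 1.91 (0.025). PRDM6, a transcriptional repressor of the PR domain family, stood at 1.01, 0.546, 16.8 and 24.3, a change of 4.78 (0.025), but rested on 5, 3, 99 and 138 UMIs in 4, 3, 12 and 19 nuclei. For each of these genes the control samples lay close together and far from the PP121 samples.

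With the block, the rule also named LHX9, SHOX, ROR2 and ADCY8 for a rise. LHX9 stood at 7.24, 2.55, 18.0 and 29.6 CPM, a change of 2.36 (adjusted p = 1.0e-08 with the block and 0.13 without). SHOX, a homeobox factor, stood at 1.01, 9.83, 22.4 and 30.3, ROR2, a receptor for Wnt ligands, at 5.43, 15.8, 18.7 and 75.5, and ADCY8, a calcium-stimulated adenylyl cyclase, at 15.9, 25.3, 49.4 and 136. In all of them both PP121 samples exceeded both control samples, which the naming rule required. That held for 22.9% of all genes tested, and 46.3% of genes had both PP121 samples on 1 side of both controls. AL008633.1, AC105389.3, AL157829.1 and NREP-AS1 were the non-coding names, at 2.73, 2.53, 2.31 and 2.30.

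Named for a fall with the block were 3 mitochondrial genes, MT-ATP6, MT-CYB and MT-ND3, at -1.82, -1.74 and -1.65. MT-ATP6 stood at 49.3, 39.5, 10.7 and 13.2 CPM. Single nuclei held much of the control signal. In control replicates 1 and 2, 1 labelled nucleus held 80 of 245 and 61 of 217 MT-ATP6 UMIs. For MT-CYB it was 46 of 162 and 41 of 193, and for MT-ND3 19 of 75 and 28 of 99. The mean mitochondrial share of UMIs in labelled nuclei moved with the 3 genes, at 0.0475%, 0.0450%, 0.0218% and 0.0187%, and its part in these values was not tested. PSD4, an exchange factor for a small GTPase, stood at 184, 61.7, 59.4 and 14.99, LINC02334 at 54.9, 22.0, 9.67 and 12.0, and C1orf61 at 47.8, 26.4, 10.9 and 15.5. HIST2H2BF, a histone gene, AL353138.1, IQANK1 and AC004949.1 were at -1.64, -1.58, -1.37 and -1.35. The share of labelled nuclei called in S phase was also lower in PP121 samples, at 38.9%, 39.7%, 23.3% and 21.3%, and its part was not tested.

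**Figure D4:**
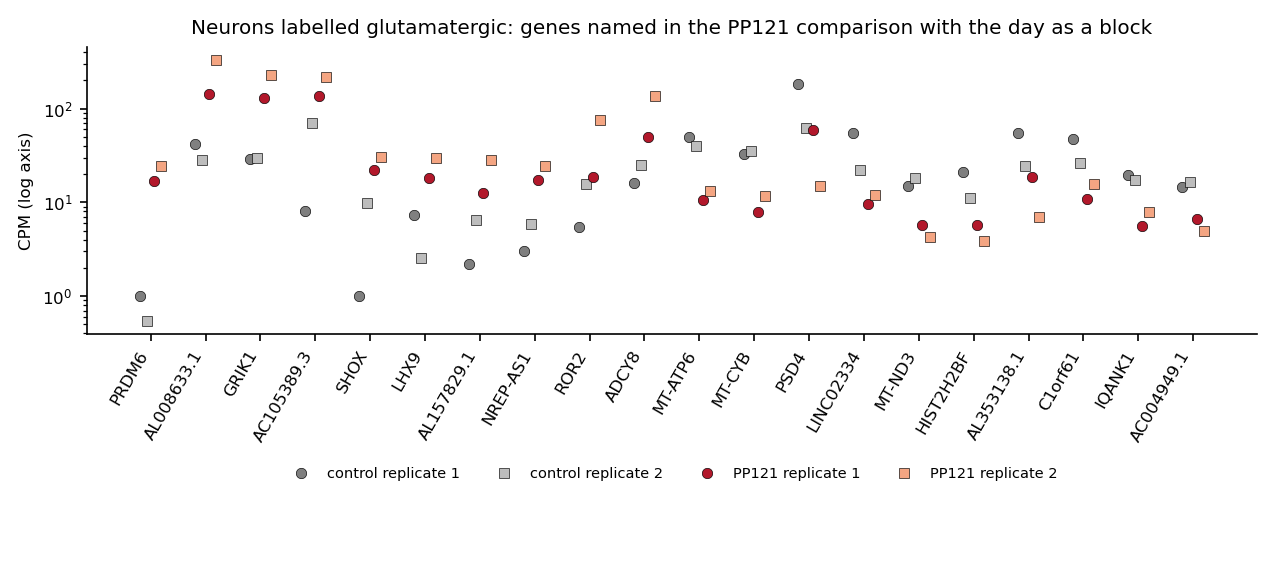
CPM (log axis) in the labelled neurons of each of the 4 samples for the 20 genes named by rule in the PP121 comparison with the replicate number as a block. As the naming rule required, for the first 10 genes both PP121 symbols (red and orange) lie above both control symbols (grey), and for the last 10 below them.

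SLC17A6 in labelled neurons changed by 0.86 (adjusted p = 0.21) without the block and rose by 0.89 (1.5e-05) with it. The share of labelled nuclei with an SLC17A6 UMI at 2000 UMIs had a control mean of 5.22% ± 1.17 (SD, n = 2) and a PP121 mean of 9.17% ± 0.554 (SD, n = 2). The difference of 3.94 points was 5.17 at day 42 and 2.72 at day 38, with both PP121 samples above both controls and an exact permutation p of 0.333, the smallest possible. SLC17A8 fell by 1.24 with the block (adjusted p = 0.031, and 0.25 without).

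Among the listed groups, 5 of 18 ionotropic receptors rose with the block (GRIA1, GRIA3, GRIA4, GRIK1 and GRIK2) and 0 fell, with a median of 0.09 beside -0.0153 over all genes. Of all genes tested, 7.22% rose and 4.34% fell with the block. GRIA4 stood at 184, 197, 336 and 288 CPM and changed by 0.78 (adjusted p = 6.3e-08, and 0.12 without the block). Of 10 tested excitatory lineage factors, 5 rose with the block, LMX1B, LHX9, EBF1, EBF2 and EBF3, with a median of 0.74. EBF1 stood at 305, 402, 605 and 801, a change of 1.06 (6.7e-13, and 0.14 without). TAC1 rose by 1.60 (1.6e-08, and 0.22 without), from 6.84 and 17.1 to 22.7 and 45.3.

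Of 11 neuron markers of the study 7 rose with the block and 0 fell, with a median of 0.34. Of 7 progenitor markers 3 fell, MEF2C, PAX7 and NFIA, and 0 rose, with a median of -0.47. Over all genes tested 7.22% rose and 4.34% fell. Of 23 tested vesicle release genes 7 rose and 2 fell. Without the block, GRIK1 was the only gene of any list that passed. Fewer cells of a kind and less RNA per cell cannot be told apart in these sums.

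Finally, the PP121 difference was tested for a difference between labelled and other neurons. In this interaction test 19 of 18972 genes passed (0.100%), 9 with a positive (0.0474%) and 10 with a negative (0.0527%) interaction. A negative value means a more downward log2 change in labelled than in other neurons, which can be a larger fall. LINC02334, at -1.77, stood at 54.9, 22.0, 9.67 and 12.0 CPM in labelled and 18.4, 5.01, 10.2 and 12.3 in other neurons. DESeq2 gave 8 genes, of which 6 were positive and 2 negative. Without the nuclei with as many progenitor as neuron marker UMIs, 6 genes passed, all positive. With identity by replicate number added as a block, 124 passed.

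GRIK1 was the only listed glutamate receptor gene to pass. It stood at 29.4, 29.7, 130.2 and 226.6 CPM in labelled neurons and at 38.6, 57.5, 71.9 and 93.5 in the others. The interaction was 1.74 ± 0.19 on the log2 scale (adjusted p = 0.0015). CDH12 and CNTN5, both adhesion molecules, had interactions of 1.09 and 1.23, and NEGR1, a neuronal growth regulator, of 1.03 (0.0015). NEGR1 stood at 138, 98.1, 264 and 310 in labelled neurons and at 271, 205, 280 and 295 in the others, so that it was below them in both control samples and close to them in both PP121 samples.

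SLC5A7, the high-affinity choline transporter, had the largest value of the genes named, 3.02 (0.0025). It stood at 0.804, 5.10, 6.78 and 11.1 CPM in labelled and 5.57, 36.3, 5.61 and 10.5 in other neurons, and came from 4, 11, 12 and 18 labelled nuclei. On the other side, PAX3 was at -1.18 (0.0011), PAX7 at -1.16 (0.046) and NFIA, a factor of late progenitors and glia, at -1.41 (0.0049). Labelled neurons had more PAX3 and PAX7 than the others in control samples, and in PP121 samples the levels were closer, with PAX7 at 37.6 and 51.8 against 29.7 and 46.1.

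**Figure D5:**
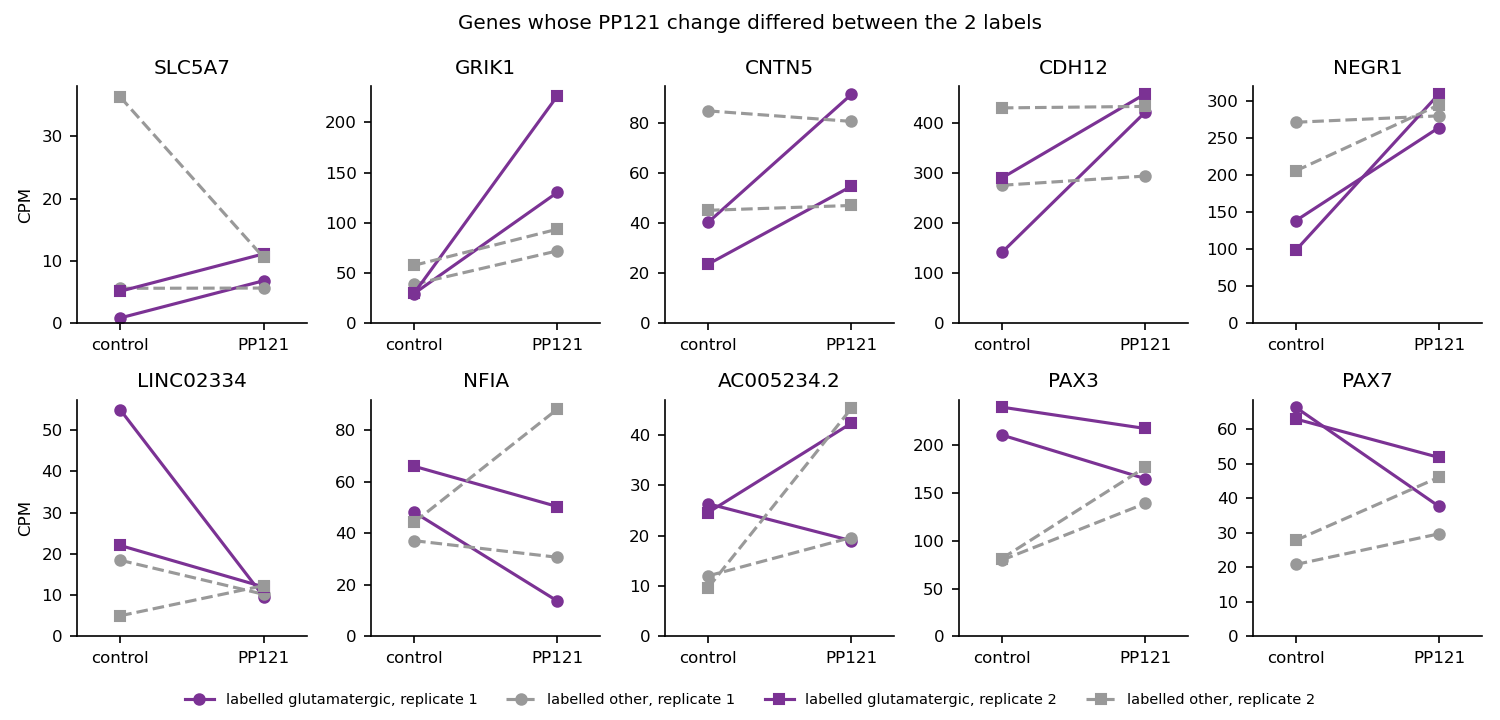
CPM in control and PP121 samples for the 10 genes named by rule in the interaction test, with neurons labelled glutamatergic as solid purple lines and neurons labelled other as dashed grey lines, joined within a replicate number. GRIK1 climbs from 29.4 and 29.7 to 130.2 and 226.6 in labelled neurons, and the PAX3 lines of the 2 labels converge.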

How the data were processed

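Nuclei from 4 samples were profiled with droplet 3′ libraries carrying hashtag antibodies. The counts deposited by the authors are UMIs per gene and nucleus for 36601 features and were not normalized, and the totals were 49428774, 33969959, 42265737 and 29305639 UMIs per sample. The study's methods name kallisto and bustools, and the submitters' processing notes list Cell Ranger, Seurat 4.0.4 and GRCh38. Which made the matrices, and whether strand and introns were used, is not given in the sources used here. Cell types, subtypes, identities, cell cycle phase and day came from the deposited metadata, as did the mitochondrial and ribosomal percent of UMIs, which the authors computed per nucleus. The methods state an identity rule for nitrergic neurons only, from imputed expression and a module score.

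Samples were grouped by their titles and paired by the replicate number, which the deposited day column ties to day 42 or day 38. Deviations of same-numbered samples from their group means correlated at 0.285 over 18191 genes. Libraries shared 20 annotated barcodes over all pairs, of which 2 were labelled in both. Doublets had no caller run on them, and the doublet candidates left out in an alternative were the 5% of neurons with the most UMIs and nuclei with 2 or more collagen and EPCAM UMIs.

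Counts were summed per sample and label. edgeR 4.0.16 in R 4.3.3 gave TMM factors, the filterByExpr filter, quasi-likelihood tests and Benjamini-Hochberg adjustment, called at 0.05, and DESeq2 1.42.0 was the alternative. Printed levels are CPM, raw summed counts of a gene scaled to an equal library total, not corrected for gene length. Scripts were tested on simulated data. Exact permutation tests were two-sided. Thinning drew 2000 UMIs per nucleus without replacement, with 1000 and 4000 as alternatives. The study calls its replicates biological, and whether same-numbered samples shared a differentiation is not given in the sources used here. Genes named were the 10 largest changes each way (5 for the interaction) among those called, with a mean of at least 10 CPM and the same direction in every sample, plus listed genes. Positions are from GENCODE 29 on GRCh38. Other settings were DESeq2, other filters, each sample left out, other definitions of the neurons, nuclei left out, and fits with or without blocks. Members and gene lists were chosen with earlier results of these data known. Results for some listed genes are not reported here.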

Additional observations from a re-analysis of the deposited data

Results flagged for a closer look

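The PP121 difference of 10 genes named by rule differed between labelled and other neurons in the interaction test (edgeR, adjusted p under 0.05). The interaction was positive, on the log2 scale, for SLC5A7 (3.02), GRIK1 (1.74), CNTN5 (1.23), CDH12 (1.09) and NEGR1 (1.03). It was negative for LINC02334 (-1.77), NFIA (-1.41), AC005234.2 (-1.27), PAX3 (-1.18) and PAX7 (-1.16). AC005234.2 stood at 26.3, 24.6, 19.0 and 42.3 CPM in labelled and 12.0, 9.64, 19.6 and 45.2 in other neurons, so that replicates 1 and 2 of PP121 lay on opposite sides of the labelled controls.

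The enteric neurons that had no deposited identity took part in no comparison. In the PP121 samples 9 of 204 of them, or 4.41% (exact 95% interval 2.04 to 8.21%), had an SLC17A6 UMI at 2000 UMIs. In the control samples it was 0 of 31, which allows a share of up to 9.68%, so a difference was not detectable at this depth.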

How the results depend on the processing

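For labelled against other neurons, where 2798 genes were called, DESeq2 called 1335, the SLC17A6 definition 903 and the fit with no sample block 124, and leaving out 1 sample gave 1216 to 2364. Of the named genes, 13 changed sign with the SLC17A6 definition: ABCA1 -0.70, EYA2 -1.02, GLUL -0.52, INSM1 -2.16, NEUROD4 -0.70, NHLH1 -1.70, PAUPAR -2.11, RGS16 -1.22, ST18 -0.86, AC004470.1 0.35, PTPRT 0.89, RALYL 0.21 and TAFA1 1.24. SLC17A6 was -0.07 in labelled neurons with no other transmitter identity. The cause of these changes was not tested.

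For PP121 against control in labelled neurons, where 4 genes were called, DESeq2 called 167, no filter 127, labelled neurons with no other transmitter identity 50, both identities in 1 fit 1, and leaving out 1 sample 0 to 1032. The replicate block gave 2103. With the block and a second choice added after seeing the data, the count was 281 with DESeq2, 1115 with no other transmitter identity, 1486 without progenitor-like nuclei, 1136 without doublet candidates and 98 with the SLC17A6 definition. The residual degrees of freedom were 2 without and 1 with the block.

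For the interaction, where 19 genes were called, DESeq2 called 8, no filter 232, the SLC17A6 definition 4, the fit without progenitor-like nuclei 6 and the replicate block 124, and leaving out 1 sample gave 1 to 63. With the SLC17A6 definition CDH12 was -0.13, LINC02334 1.75, NEGR1 -0.10, NFIA 0.82 and PAX7 0.06, none of which passed (edgeR, adjusted p of 0.99 or more).

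The SLC17A6 share difference between labels, 0.937 points at 2000 UMIs, was 1.16 at 1000, 3.23 at 4000 and 6.86 without thinning, and ran from -0.244 to 1.99 points over the samples left out, and the catecholaminergic difference was -1.4 points without control replicate 1. With 2 samples per group, permutation tests of shares could not reach 0.05. The replicate block left the share differences of 16.5 and 3.94 points between treatments as they were. The 357 nuclei of the SLC17A6 definition give less depth than the label.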
